A study of Mus musculus with 9 samples.

Results

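Apobec3, Fam118a and Parvg are 3 protein-coding genes of mouse chromosome 15, and they make up 3 of the 20368 genes in the table of erythroblast expression. They were selected on their measured levels, which differed between libraries of the same genotype, so the levels below are a description and carry no test. RNA was sequenced from spleen cells sorted for CD71, through which cells take up transferrin-bound iron, and for the red cell antigen Ter119, a gate that takes maturing erythroblasts. The mice were C57BL/6, 4 weeks old, and differed at Dhh, which encodes Desert hedgehog, a secreted signalling protein. There were 3 wildtype libraries, 3 heterozygous libraries (Dhh+/-) and 3 knockout libraries (Dhh-/-). The labels name no individual mice, so a p-value here reflects spread between libraries, which may be technical.

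Apobec3 encodes a cytidine deaminase that is packaged into retrovirus particles and mutates or blocks their DNA copies. It restricts Friend virus, a mouse retrovirus that infects spleen erythroblasts, and inbred strains are known to carry alleles that differ in messenger level and splicing. The mouse has a single Apobec3 gene beside the more distant deaminases Apobec1, Apobec2 and Apobec4. Parvg encodes gamma-parvin, an actin-binding adaptor that joins integrin-linked kinase (Ilk) at adhesion sites and is made mainly in blood cells. Fam118a is a poorly characterised gene related to Fam118b.

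In the GENCODE M21 annotation of GRCm38 (mm10), all 3 genes lie on the + strand. Apobec3 spans chr15:79891659-79915906 with 20 annotated transcripts, Parvg chr15:84324026-84342978 with 7, and Fam118a chr15:85028948-85062830 with 7. Parvg starts 4.43 Mb and Fam118a 5.14 Mb from the Apobec3 start, and 0.705 Mb separates the starts of Parvg and Fam118a. Dhh is on the same chromosome, 19.0 Mb from Apobec3 and 13.9 Mb from Fam118a.

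The promoters are shown because Apobec3 and Fam118a moved in opposite directions in the same libraries while Parvg followed another pattern. Each is the RefSeq window on build GRCm38.p6, + strand, from 250 bases before to 50 bases after a listed start, and each lies inside the longer GENCODE gene span. Positions are chr15:79892158-79892457 for Apobec3 (1 of 2 listed starts), chr15:85036839-85037138 for Fam118a (1 of 4) and chr15:84324470-84324769 for Parvg (1 of 2). Capitals mark matches, on either strand, to 5 motifs: the interferon response element GAAANNGAA, the PU.1 site GAGGAAGT, the GATA site AGATAA, the GC box GGGCGG and the CCAAT box CCAAT.
Apobec3: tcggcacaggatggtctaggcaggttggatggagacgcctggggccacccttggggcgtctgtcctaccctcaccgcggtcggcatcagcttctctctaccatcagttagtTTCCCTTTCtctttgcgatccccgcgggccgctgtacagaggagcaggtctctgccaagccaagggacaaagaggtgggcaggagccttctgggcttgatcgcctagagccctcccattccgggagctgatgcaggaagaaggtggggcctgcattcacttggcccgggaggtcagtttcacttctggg
Fam118a: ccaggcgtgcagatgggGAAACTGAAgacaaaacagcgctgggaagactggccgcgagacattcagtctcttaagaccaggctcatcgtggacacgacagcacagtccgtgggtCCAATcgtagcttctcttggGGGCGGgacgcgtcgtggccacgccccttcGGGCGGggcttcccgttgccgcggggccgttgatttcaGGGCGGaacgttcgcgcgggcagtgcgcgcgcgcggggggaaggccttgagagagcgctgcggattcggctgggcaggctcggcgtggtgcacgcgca
Parvg: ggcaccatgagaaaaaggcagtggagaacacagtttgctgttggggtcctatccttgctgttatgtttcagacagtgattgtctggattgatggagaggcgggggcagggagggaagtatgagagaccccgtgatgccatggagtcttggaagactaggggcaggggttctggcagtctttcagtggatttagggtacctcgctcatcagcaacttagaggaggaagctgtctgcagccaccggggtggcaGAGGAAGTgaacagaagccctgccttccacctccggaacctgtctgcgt

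The 3 windows had little in common. The Fam118a window held 36 CpG dinucleotides and 66.7% GC, Apobec3 13 and 61.0%, and Parvg 6 and 55.0%, beside medians of 7 and 52.7% over 32851 mouse promoters of the same length. Apobec3 and Fam118a each held 1 match to the interferon response element, which 8.56% of promoters hold, and Parvg held none. The Parvg window alone of the 3 held the PU.1 letters, which are present in 3.2% of promoters (PU.1 is a transcription factor of myeloid and B cells). Fam118a held 3 GC boxes and 1 CCAAT box, found in 35.7% and 37.4% of promoters, and the other two held neither. None of the 3 held the GATA letters, found in 11.2%. The motifs share no letters where they matched, were chosen with the sequences in view, and a match is a description of letters, not of binding.

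Whole reads could be recovered from the deposited values, and the 9 libraries held 7.05 to 14.23 M reads and 8235 to 9553 genes at 1 FPKM or more. FPKM are fragments scaled to gene length and library depth, here with a size factor per library in the deposited values. No 2 libraries agreed within sampling noise, and the 12 erythroid markers summed to between 14840 and 27310 FPKM, so the red cell identity of the sort showed in every library. Dhh itself was at 0 in 8 libraries, the 3 wildtype ones included, and at 0.0267 FPKM in heterozygous replicate 1, so it checks no label.

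Apobec3 was far higher in 2 of the 9 libraries than in the rest. In the wildtype libraries it stood at 96.8, 6.06 and 9.40 FPKM (replicates 1, 2 and 3), from 2067, 146 and 309 reads. The heterozygous libraries gave 103, 7.30 and 6.21 FPKM, from 4012, 131 and 233 reads. The knockout libraries gave 6.85, 7.19 and 6.10 FPKM, from 229, 167 and 195 reads. Wildtype replicate 1 and heterozygous replicate 1 were thus high, the other 7 libraries lay between 6.06 and 9.40, and the 3 genotypes overlapped. The exact Poisson 95% intervals of the reads ran from 92.7 to 101 FPKM in wildtype replicate 1 and from 99.96 to 106 in heterozygous replicate 1, but only from 5.12 to 7.13 in wildtype replicate 2. These intervals cover counting error only. The highest wildtype library exceeded the lowest 16.0-fold and the highest heterozygous library its lowest 16.6-fold, against 1.18-fold among the knockouts.

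Fam118a showed the same 2 libraries at its lower end. Its wildtype levels were 1.09, 3.89 and 3.97 FPKM, from 24, 97 and 135 reads. Its heterozygous levels were 1.12, 3.72 and 4.63 FPKM, from 45, 69 and 180 reads. Its knockout levels were 4.34, 3.87 and 5.44 FPKM, from 150, 93 and 180 reads. Wildtype replicate 1 and heterozygous replicate 1 were lowest, with Poisson intervals of 0.696 to 1.62 and 0.815 to 1.5 FPKM, below the interval of 3.15 to 4.75 in wildtype replicate 2. The other 7 libraries held 3.72 to 5.44 FPKM, and the genotypes overlapped. The spread was 3.65-fold among wildtype, 4.15-fold among heterozygous and 1.41-fold among knockout libraries.

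Parvg did not share this pattern. It stood at 23.2, 21.3 and 3.72 FPKM in the wildtype libraries, from 566, 587 and 140 reads. In the heterozygous libraries it stood at 14.8, 15.5 and 16.1 FPKM, from 658, 317 and 693 reads. The knockout libraries gave 10.1, 29.1 and 10.3 FPKM, from 385, 774 and 375 reads. Wildtype replicate 3 was lowest (Poisson interval 3.13 to 4.39) and knockout replicate 2 highest (27.1 to 31.3), and the heterozygous libraries were close together at 1.09-fold. Within the wildtype group the spread was 6.23-fold and among the knockouts 2.89-fold, so the heterozygous range lay inside both others.

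**Figure D1:**
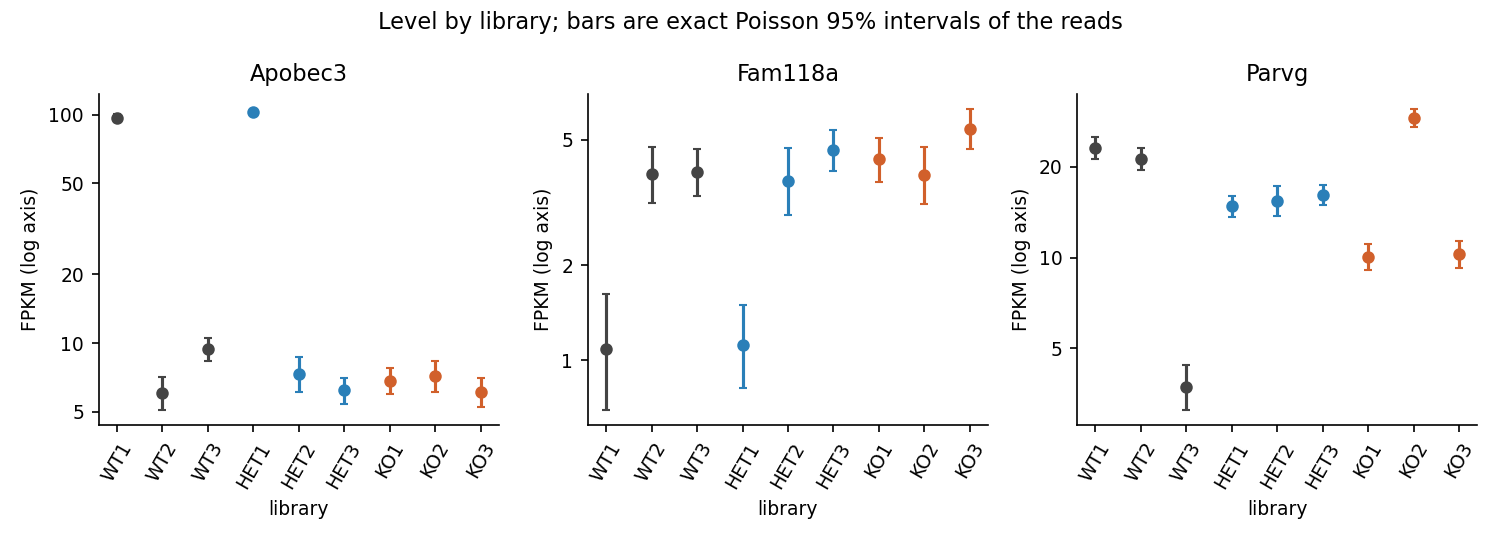
FPKM (log axis, its range set per gene) of Apobec3, Fam118a and Parvg in each library: WT wildtype, HET heterozygous, KO knockout, numbered by replicate, with exact Poisson 95% intervals of the reads as bars. WT1 and HET1 stand at 96.8 and 103 FPKM for Apobec3 and at 1.09 and 1.12 for Fam118a, while for Parvg WT3 is lowest at 3.72 and KO2 highest at 29.1.

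The label that joins the 3 genes in 1 library pattern therefore held for Apobec3 and Fam118a, in opposite directions, and not for Parvg. Over the 9 libraries, on log2(FPKM + 1), Apobec3 and Fam118a had Pearson r -0.979 and Spearman rho -0.733. Without wildtype replicate 1 and heterozygous replicate 1 the values were -0.486 and -0.464 over 7 libraries, so the likeness rests on those 2. Apobec3 and Parvg had r 0.195 and rho -0.0667, and Fam118a and Parvg r -0.302 and rho -0.467. These correlations share libraries and depth and are given as descriptions.

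Set beside all 9543 tested genes (at least 1 FPKM in at least 3 libraries), the spread of Apobec3 was among the widest. The pooled within-genotype SD on the log2(FPKM + 1) scale was 1.72 for Apobec3, 0.90 for Parvg and 0.61 for Fam118a, where the median gene had 0.23 and the 90th percentile was 0.62. This is the quantity the genes were selected on. Only 4 tested genes had a larger SD than Apobec3, among them Ccl3, Gzma and the Y-linked Eif2s3y, named after their values were seen.

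The close relatives of the 3 genes did not set both libraries apart. Apobec1, which edits apolipoprotein B messenger RNA, ranged from 3.86 to 11.4 FPKM, with 11.4 in wildtype replicate 1 and 8.65 in heterozygous replicate 1. Apobec2, a muscle deaminase, stayed between 0.378 and 1.15 FPKM, below the level for testing. Apobec4 was at 0 in all libraries. Fam118b ranged from 3.96 to 5.78 FPKM with a within-genotype SD of 0.17.

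Among the parvins, Parvb rather than Parvg was the abundant form. Parvb, beta-parvin, whose gene is next to Parvg on the chromosome, stood at 57.8 to 81.8 FPKM with a within-genotype SD of 0.18, and its r with Parvg was -0.706. Parva, alpha-parvin, was at 0.0924 FPKM or less. In every library the level per length of Parvb was above that of Parvg, whose highest value was 29.1 FPKM.

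The 4 tested genes whose levels ran most closely with Apobec3 were all on chromosome 15. Smdt1, a small subunit of the mitochondrial calcium uniporter, had r 0.928, with 133 FPKM in wildtype replicate 1, 117 in heterozygous replicate 1 and 72.7 to 89.7 in the other 7. The same 2 libraries were thus high. Cbx7, a Polycomb protein, had r 0.919, with 11.1 and 13.2 FPKM in these libraries against 1.76 to 3.82 in the others. Its annotated span and that of Apobec3 overlap by 100 bases on opposite strands, and without a stated strandedness reads from the overlap cannot be told apart. Apol11a, of the apolipoprotein L family, had r 0.902, with 5.19 and 9.49 FPKM against 0.579 to 2.44.

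The fifth was the merged row of Nptxr and Cbx6, the tested neighbour just before Apobec3, with r 0.897 and 3.83 and 6.05 FPKM in the 2 libraries against 2.21 to 3.36 in the others. The genes most opposed to Apobec3 were Fam118a, then Rcbtb1 on chromosome 14 (r -0.934), an identifier with no symbol or position, ENSMUSG00000068221 (-0.928), Hccs on X (-0.888) and Gemin6 (-0.888). The Rcbtb1 difference was small, with 3.6 and 3.73 FPKM in the 2 libraries against 4.55 to 5.31 in the others. For ENSMUSG00000068221 the values were 0.691 and 0.505 against 1.53 to 2.28 FPKM.

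Genes most like Fam118a included Rcbtb1 (r 0.917), Hccs (0.912), ENSMUSG00000068221 (0.894) and Parp11 (0.889). Hccs, which attaches heme to cytochrome c, stood at 3.92 FPKM in wildtype replicate 1 and 3.71 in heterozygous replicate 1, against 4.35 to 5.16 in the other 7 libraries. The most opposed to Fam118a included Apobec3, Cbx7 (-0.907), Smdt1 (-0.881) and Mef2a (-0.877).

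**Figure D2:**
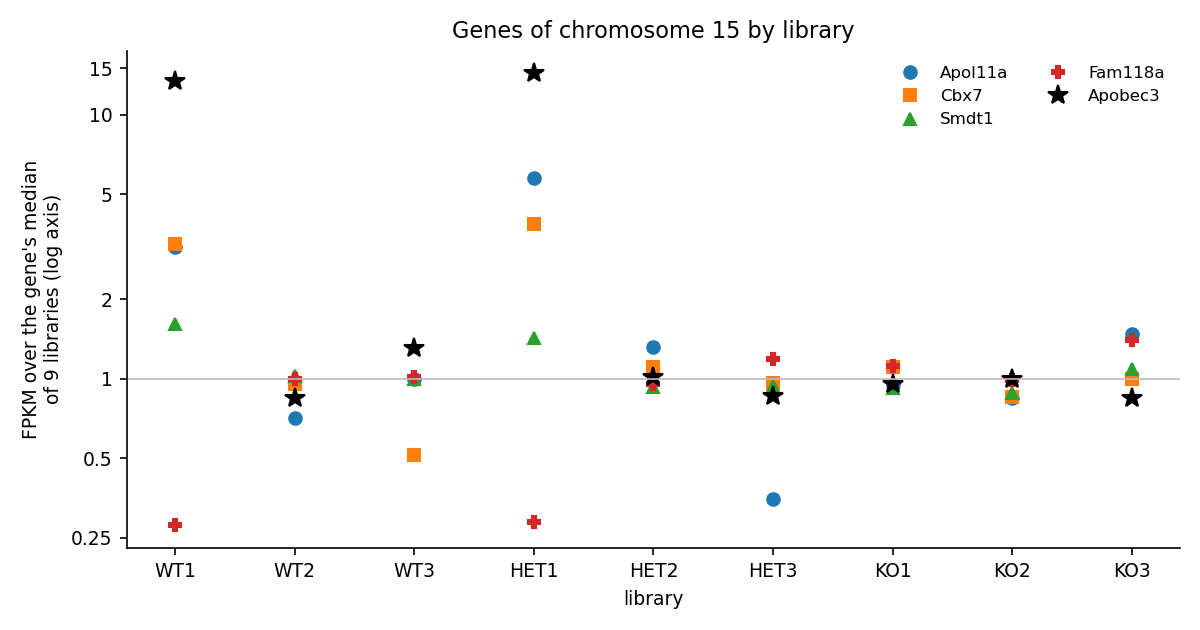
Level of 5 chromosome 15 genes in each library, as FPKM divided by the gene's median over the 9 libraries (log axis; WT wildtype, HET heterozygous, KO knockout). Apobec3, Cbx7, Smdt1 and Apol11a are above their medians in WT1 and HET1, where Fam118a is at its lowest.

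The likenesses to Apobec3 that were taken again without the 2 libraries also rest on them. Apart from Apobec3, no gene named as like or opposed to Fam118a had its r with Fam118a taken again. Over the other 7, r with Apobec3 was -0.218 for Smdt1, -0.777 for Cbx7, 0.238 for Apol11a and 0.087 for Rcbtb1, so Smdt1 and Cbx7 turned negative and Rcbtb1 turned positive. Apart from the members, 6 of 9540 tested genes (0.0629%) had an absolute r of at least 0.9 with Apobec3. Of the 141 within 5 Mb of Apobec3, 4 did (2.84%), and 1 of 9117 on other chromosomes (0.011%). None of the 83 tested genes within 5 Mb of Dhh did, but at the share of 0.0629% a set of this size mostly holds none. Neighbouring genes are not independent, so these shares are descriptions.

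Likeness to Apobec3 was uneven even among adjacent genes. Before it, Sun2 had r 0.789 and Dnal4 0.664, whereas Gtpbp1 had -0.124 and Josd1 -0.358. After Cbx7, Pdgfb had 0.465, the ribosomal protein gene Rpl3 0.119, Syngr1 -0.32 and Tab1 -0.532. Of the 5 tested genes on each side of Fam118a, the largest absolute r with it was 0.506, for Nup50. The median absolute r with Fam118a was 0.325 within 5 Mb of it and 0.301 over all tested genes. For Fam118a, 4 of 9540 tested genes (0.0419%) reached an absolute r of 0.9, and 1 of 79 within 5 Mb of it (1.27%).

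**Figure D3:**
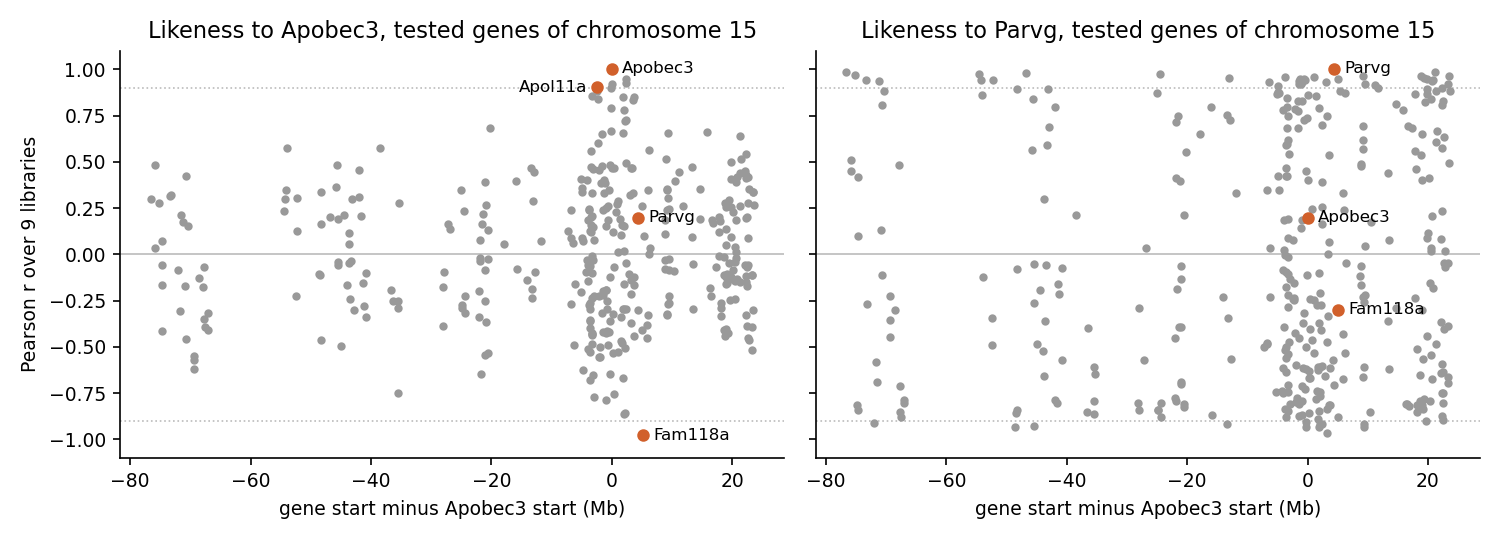
Pearson r over 9 libraries of each tested chromosome 15 gene with Apobec3 (left) and with Parvg (right), against the distance of its start from the Apobec3 start in Mb; dotted lines mark 0.9 and -0.9. On the left 4 genes other than the members pass 0.9, all within 5 Mb of Apobec3, and on the right 47 of 379 pass either line and are spread along the chromosome.

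Parvg ran with genes of macrophages and with genes on other chromosomes. The 5 most like it were Pak1 (r 0.992), Tor4a (0.992), the complement genes C1qc (0.99) and C1qb (0.989), which macrophages make, and Xbp1 (0.988). The most opposed were Eif4enif1 (-0.992) and Hmgb3 (-0.986), then Dctn4, Vrk1 and the replication factor Cdc45 (-0.98). In all, 1244 of 9540 tested genes (13.0%) had an absolute r of at least 0.9 with Parvg, 841 of them positive and 403 negative. The share was 14.9% within 5 Mb of Parvg and 13.1% on other chromosomes, close to the share over all tested genes. Among its neighbours, 5031439G07Rik had r 0.95 and Atxn10 0.883, and Nup50 had -0.878.

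All 15 macrophage markers were tested, and 14 had r of at least 0.9 with Parvg, with a median of 0.968 beside -0.224 over all tested genes. Their summed level was 1288, 816.5 and 141.5 FPKM in the wildtype, 872.4, 741.5 and 774.2 in the heterozygous and 433, 1507 and 455.3 in the knockout group, and none was at 0 throughout. Wildtype replicate 3 was lowest and knockout replicate 2 highest, as for Parvg. C1qa alone ran from 12.2 FPKM in wildtype replicate 3 to 198 in knockout replicate 2, and the receptor Csf1r from 17.1 to 226 in the same libraries. The log2 of the sum had r 0.982 and rho 0.9 with Parvg, and 0.923 and 0.786 over 7 libraries without these 2. In bulk RNA, fewer cells of a type and less RNA per cell cannot be told apart, and the part of macrophage RNA in the Parvg level was not tested.

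Parvg also ran with the lymphoid lists. The summed T and NK cell markers, 10.2 to 218 FPKM, had r 0.927 with Parvg, and 5 of 16 tested markers reached 0.9. Without wildtype replicates 1 and 3 that r was 0.793. The summed B cell markers, 92.7 to 1468 FPKM, had r 0.868, with 1 of 14 markers at 0.9, and 0.494 without the same 2 libraries. Neutrophil markers, 281.8 to 1800 FPKM, had 0.646, megakaryocyte and platelet markers -0.6 and erythroid markers 0.462. Over all tested genes apart from the members, 841 of 9540 reached r 0.9 with Parvg, a share close to 1 of 14 and below 5 of 16. Both sums of lymphoid markers were lowest in wildtype replicate 3, the lowest library for Parvg. Eif2s3y, a Y-linked gene, was at 0.599 FPKM in knockout replicate 2, the highest library for Parvg, and at 40.0 to 67.1 in the other 8. The part of the animal's sex in the Parvg level was not tested.

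**Figure D4:**
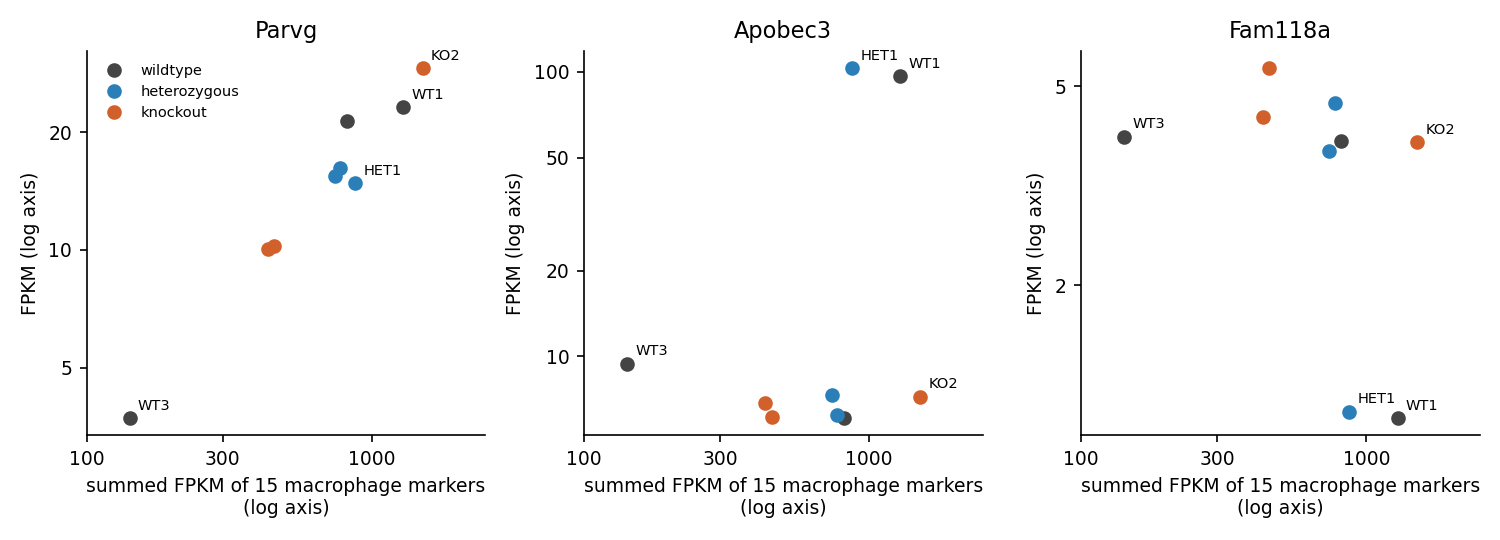
FPKM of Parvg, Apobec3 and Fam118a against the summed FPKM of 15 macrophage markers in the 9 libraries (log axes; colour gives the genotype, with 4 libraries named). Parvg is higher where the sum is higher, from WT3 to KO2 (r 0.982), whereas for Apobec3 and Fam118a WT1 and HET1 stand apart from libraries with similar sums.

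No tested marker of any cell type list reached an absolute r of 0.9 with Apobec3 or Fam118a. Over all tested genes, 6 of 9540 (0.0629%) did with Apobec3 and 4 of 9540 (0.0419%) with Fam118a. At such shares short lists mostly hold none, so the absence tells little about cell types. The summed macrophage markers had r 0.324 with Apobec3 and -0.412 with Fam118a, or 0.68 and -0.76 over 7 libraries without wildtype replicate 3 and knockout replicate 2. The macrophage sum was 1288 FPKM in wildtype replicate 1 and 872.4 in heterozygous replicate 1. In knockout replicate 2 it was 1507 FPKM, with Apobec3 at 7.19 FPKM. The 2 high libraries also differed from each other in depth, 8.66 and 14.23 M reads, and in summed B cell markers, 1468 and 658.7 FPKM. Their summed erythroid markers were 26630 and 14840 FPKM. Whether cell content or depth enters the Apobec3 and Fam118a levels was not tested.

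No other tested gene of the antiviral lists reached an absolute r of 0.9 with Apobec3, a line that 0.0629% of all tested genes passed. Lists this short mostly hold none at that share. Whether an interferon response enters the Apobec3 level was not tested. Among 27 tested genes of the type I interferon response, the median r with Apobec3 was -0.208. Their summed level was 2776 FPKM in wildtype replicate 1 and 2008 in heterozygous replicate 1, within the range of 2012 to 3634 of the other 7 in the first case and just under it in the second. The antiviral genes Rsad2 and Isg15 and the factor Irf7 had r -0.114, -0.196 and -0.371. Of 25 tested genes of retrovirus restriction and sensing, which include Ifitm3 (r 0.136) and Zc3hav1 (0.103), the median was -0.119. The 8 tested genes of deaminases and uracil repair had a median of -0.215. In that list Samhd1, which degrades deoxynucleotides, had r 0.925 with Parvg and Dut, which removes dUTP, had -0.928.

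Of 27 tested genes of parvins, Ilk and integrin adhesion, 7 had r of at least 0.9 with Parvg and 3 had -0.9 or less. Over the 9540 tested genes apart from the members these counts were 841 and 403, or 13.0% in either direction, a smaller share than in this list. Genes of a list are not independent, and whether the list differs from other genes was not tested. Ilk itself, the kinase that parvins bind, was at 106 to 172 FPKM and had r -0.952, and the actin cross-linker Actn4 had -0.924. Ilk was highest in wildtype replicate 3 and lowest in knockout replicate 2, the reverse of Parvg. Tln1, talin, had r -0.411. The summed list ranged from 1002 to 1171 FPKM, and its log2 had r 0.736 with Apobec3, -0.704 with Fam118a and 0.47 with Parvg. The sum was highest in wildtype replicate 1 (1171) and heterozygous replicate 1 (1111), with 1105 in knockout replicate 2. No r of this sum was taken without these libraries.

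Between genotypes the 3 genes did not pass the test. Limma was fitted to all 9543 tested genes, and 0 of the 3 were called at an adjusted p below 0.05 in knockout versus wildtype, where 0% of tested genes were called. The same held for heterozygous versus wildtype (0 of 3; 0% called) and knockout versus heterozygous (0 of 3; 0% called). The unadjusted p was below 0.05 for 43, 113 and 56 genes in these comparisons (0.451%, 1.18% and 0.587%), none of them a member. These shares are well under the 0.05 that no difference would give, so the absence of calls tells little. Limma's voom on recovered reads called 0 genes, with 43, 84 and 55 unadjusted. Because the genes were selected on their spread within genotypes, and that spread enters the SE, the fitted values are descriptions.

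Apobec3 averaged 37.4 ± 51.5 FPKM (SD, n = 3) in the wildtype, 38.9 ± 55.6 in the heterozygous and 6.71 ± 0.559 in the knockout group. The fitted difference on the log2(FPKM + 1) scale was -1.33 ± 1.15 (SE) for knockout minus wildtype, with a 95% interval from -3.92 to 1.27 (limma, adjusted p = 0.9997). It was -0.07 ± 1.15 for heterozygous minus wildtype and -1.26 ± 1.15 for knockout minus heterozygous, with intervals from -2.66 to 2.53 and from -3.85 to 1.34. Mean FPKM put heterozygous above wildtype and the log2 scale put it below, and neither that step nor the one to knockout was larger than the spread. Without wildtype replicate 1 the knockout difference from wildtype was -0.15, and without heterozygous replicate 1 that from heterozygous was -0.0073.

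Fam118a averaged 4.55 ± 0.806 FPKM in knockout, 3.16 ± 1.82 in heterozygous and 2.98 ± 1.64 in wildtype libraries (SD, n = 3 each). Knockout minus wildtype was 0.57 ± 0.42 on the log2 scale, with an interval from -0.38 to 1.53. Heterozygous minus wildtype was 0.05 ± 0.42 (-0.91 to 1.01) and knockout minus heterozygous 0.52 ± 0.42 (-0.43 to 1.48). Neighbours in this order did not differ beyond their spread. With wildtype replicate 1 and heterozygous replicate 1 both left out, an alternative chosen after seeing the data, the 3 differences were 0.16, 0.065 and 0.096.

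Parvg averaged 16.5 ± 10.9 FPKM in knockout, 16.1 ± 10.7 in wildtype and 15.5 ± 0.678 in heterozygous libraries (SD, n = 3 each), so the means were close while the spread was not. On the log2 scale the order was heterozygous, knockout, wildtype. Knockout minus wildtype was 0.19 ± 0.61 on the log2 scale, with an interval from -1.19 to 1.56. Heterozygous minus wildtype was 0.27 ± 0.61 (-1.11 to 1.64) and knockout minus heterozygous -0.08 ± 0.61 (-1.46 to 1.29). Without wildtype replicate 3, the library with the least macrophage signal, knockout minus wildtype was -0.58. None of these intervals excludes a difference of 1 log2 unit in either direction. Macrophage markers had median differences of 0.304, 0.579 and -0.231 in the 3 comparisons, with 0 of 15 called in each.

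**Figure D5:**
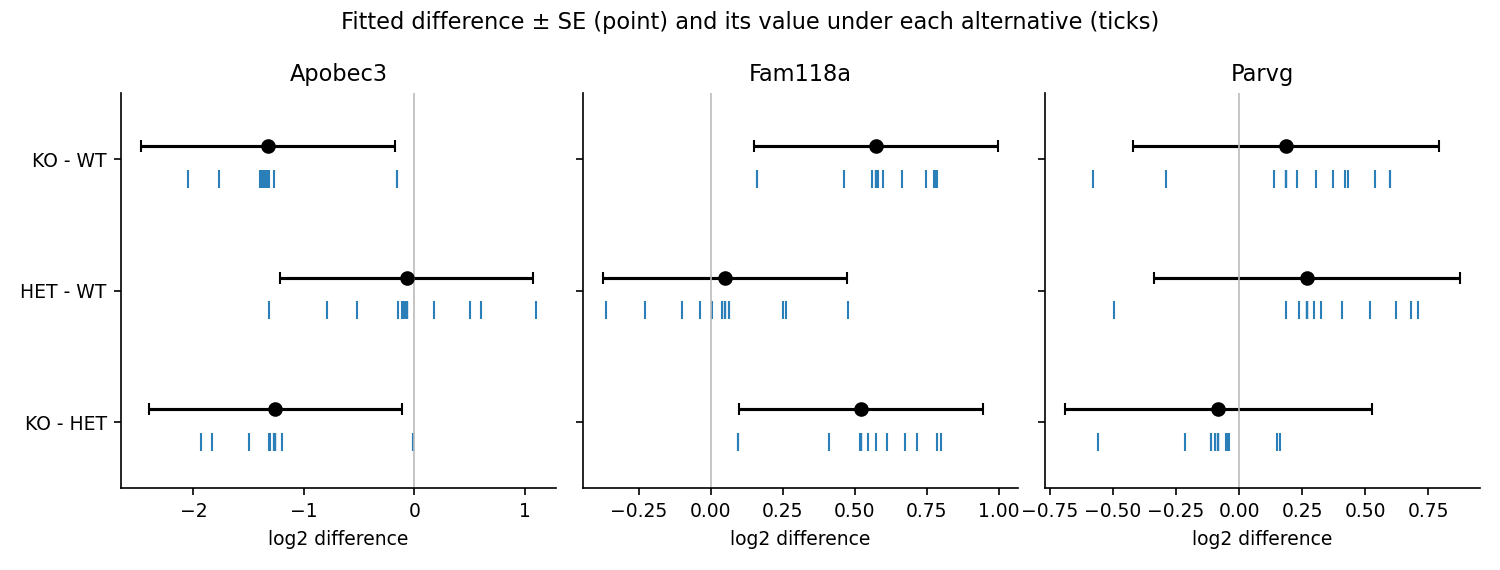
Fitted log2 difference of Apobec3, Fam118a and Parvg in the 3 genotype comparisons (WT wildtype, HET heterozygous, KO knockout): points are the limma estimates with SE bars, and blue ticks the estimates under each alternative. The Apobec3 difference of knockout from wildtype is -1.33 with all libraries and -0.15 without wildtype replicate 1.

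The lists describe the genotypes in the same terms, and 0 members of any list were called in any comparison. In knockout versus wildtype, 20 of 27 interferon genes had a positive difference with a median of 0.0979. Over all tested genes apart from the members, 5028 of 9540 were positive with a median of 0.00877. For retrovirus restriction 16 of 25 were positive with a median of 0.0397, and for parvins and adhesion 16 of 27 with 0.0412. In heterozygous versus wildtype the medians of these lists were -0.13, 0.0042 and 0.0822, and in knockout versus heterozygous 0.223, 0.0472 and -0.0601. Erythroid markers had medians of -0.0476, -0.136 and 0.0977 in the same order. Positive interferon genes numbered 7 of 27 in heterozygous versus wildtype and 23 of 27 in knockout versus heterozygous. Over all tested genes apart from the members these counts were 4710 and 4872 of 9540.

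A profile that averaged the 3 genes, each standardised over the libraries and turned to the sign of its r with Apobec3, mixed both patterns. Its closest genes included Mef2a, Zc3h12a, Dusp5 and Smad3, then Cbx7, Ppap2b, Klrg1, Sgsh and Mark4. Among the most opposed were Tm7sf3, Scnm1, Rec8 and Sh2d4a. Of 9540 tested genes 16 (0.168%) passed an absolute r of 0.9, and 3 of the 169 within 5 Mb of a member (1.78%).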

How the data were processed

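RNA sequencing of CD71+Ter119+ spleen cells gave 9 libraries, 3 per genotype, grouped by the titles. The FPKM values were deposited by the authors as 1 table. TopHat, Picard and DESeq2, with mm10 as the build, are listed in the submitters' processing notes with no version or role. Annotation, strandedness and read layout: not given in the sources used here. Each deposited FPKM value was found to be a whole number of reads times a constant per gene, divided by a size factor. This held for all 14147 genes above 0 in at least 2 libraries, within 0.05 read. For a gene above 0 in few libraries some constant nearly always fits, so its recovery is no check. The check rests on the 11276 genes above 0 in all libraries.

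Values were analysed as log2(FPKM + 1), which understates differences of low genes. The 9543 genes that reached 1 FPKM in 3 or more libraries were fitted with limma 3.58.1 in R 4.3.3 (eBayes with trend, 1 mean per genotype, 2-sided, Benjamini-Hochberg adjusted p below 0.05), and the test and the read recovery were tested on simulated data. Likeness is Pearson's r over the 9 libraries. Positions came from GENCODE M21 for 20092 rows (98.6%). Promoter sequences came from RefSeq and matched all 3 genes.

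The members, lists, tests and motifs were chosen with earlier results of these data known. Named genes were the members and their families, the 5 tested genes with the highest and lowest r to each member, 10 and 5 for the joint profile, the 5 nearest tested genes on each side, and list genes by abundance. Ccl3, Gzma and Eif2s3y were added after their values were seen. Some genes that the rule names are not reported here. Replicate numbers come from the titles, and no label names a shared litter, batch or day. Knockout and heterozygous libraries of one number deviated from their group means with r 0.2, 0.18 and 0.41 for numbers 1, 2 and 3. All were above 0.1, the line used for pairing. No r was taken between libraries of different numbers, so pairing was not shown, and the main fit used none. The alternative fit with a replicate block used the numbers in all 3 genotypes.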

Additional observations from a re-analysis of the deposited data

How the results depend on the processing

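Of 144 fitted values of the 3 genes under the alternatives, 131 kept their direction and side of the threshold and 13 changed direction, with a lowest adjusted p of 0.8752 (limma). No gene was called in any of the 48 recounts. With voom on recovered reads, heterozygous minus wildtype was 0.18 for Apobec3 and -0.036 for Fam118a. Leaving out libraries moved that comparison from -1.32 to 1.1 for Apobec3, from -0.36 to 0.48 for Fam118a and from -0.50 to 0.71 for Parvg. For Parvg, knockout minus wildtype moved from -0.58 to 0.60 and knockout minus heterozygous from -0.56 to 0.16. The cause of the voom changes was not tested. With a replicate block the Apobec3, Fam118a and Parvg differences of knockout from wildtype were again -1.33, 0.57 and 0.19, since the design is balanced, and 0 genes were called. The deviations of same-numbered libraries had r -0.57, 0.51 and 0.33 between knockout and wildtype and 0.13, 0.18 and 0 between heterozygous and wildtype. Not all of these were above 0.1, and pairing with wildtype libraries was not shown.  Fam118a rests on 24 and 45 reads in its 2 lowest libraries, which sets wide counting intervals there.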
